A study of Mus musculus with 27 samples.

Results

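Gene expression was compared between mouse embryonic fibroblasts that lack PKBalpha and wild-type fibroblasts, both taken 24 h after gamma irradiation. The comparison held 6 of the 27 arrays of the series, 3 for each line, which were picked by their titles. The knockout group was the PKBa -/- MEF line at 24 h after a dose of 10 Gy. The wild-type group was the PKBa-MEF-WT line at 24 h after the same dose. Cells of both groups were female, had reached passage 45, were kept in 10% serum and had been in culture for 24 h when they were irradiated. The kind of Akt1 deletion and the origin of the lines are not given in the labels. A genotype was present as 1 line only, so an effect of the missing kinase and any other difference between the lines cannot be told apart. The design text speaks of 3 biological replicates per condition, but all 3 come from 1 line and nothing says that they were separate cultures. The p values measure the spread between these samples, which may be technical. Group names follow the titles, since the description fields of the irradiated wild-type samples name them as untreated. The same lines untreated and at 4 h after 10 Gy, again with 3 arrays each, served to ask which differences were specific to 24 h. The line labelled R, which carries reconstituted PKBalpha per its labels, is given as a level at 24 h for a few genes.

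PKBalpha, the kinase that Akt1 encodes, is activated at the cell membrane by the lipid product of PI3 kinase and phosphorylates proteins that control survival, growth and metabolism. Among its substrates are the FOXO transcription factors, which leave the nucleus when phosphorylated, and Mdm2, the ubiquitin ligase that removes p53. Gamma radiation breaks DNA, and the breaks activate p53, which raises transcription of the cell cycle inhibitor gene Cdkn1a and of other targets. Fibroblasts respond to such breaks by halting before DNA synthesis or mitosis, and the transcripts of mitotic genes fall while they are halted.

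All 6 arrays had low Gapdh 3' to 5' control ratios, at -0.391 to -0.298 (log2) in knockout cells and -0.411 to -0.403 in wild-type cells. The median intensity was 55.67 to 66.96 on the knockout arrays and 63.11 to 72.46 on the wild-type arrays. Of 18193 genes, 10982 to 11146 lay above the background level on the knockout arrays and 11264 to 11682 on the wild-type arrays. The background level was an intensity of 48.3, the highest reading of probe sets for Y-linked genes in these female cells. Elsewhere in the series, 5 arrays had higher ratios (-0.187 to 0.16), none of them in the 2 groups at 24 h. Those arrays enter the shared estimate of spread, and a fit without them stands beside the main counts. They include replicate 2 of the untreated wild type (-0.137) and replicate 2 of the untreated knockout (-0.163). Replicate 0 of the wild type at 4 h (-0.187) is another. These enter the group means of the comparisons with untreated cells and with 4 h. All 14 measured fibroblast markers lay above background on each of the 6 arrays, and their intensities summed to 165224 to 184179 in knockout and 160281 to 164664 in wild-type cells.

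Akt1 was nearly absent from the knockout line and served as the check of the labels. Its brightest probe set read 37.1, 9.55 and 17.5 in knockout cells, against 2981, 3011 and 3114 in wild-type cells. All knockout values of this probe set lay below background and the groups did not overlap. By it Akt1 in the knockout was lower by at least 62.8-fold (limma adjusted p = 3.5e-06). Another probe set averaged 6.61 in knockout and 2296 in wild-type cells. A further one lay above background in both lines, at 72 in knockout and 118 in wild-type cells. It did not pass (-0.71, limma adjusted p = 0.11 over probe sets). The last averaged 7.24 and 9.84, below background in both lines. In the line labelled R at 24 h the brightest Akt1 probe set averaged 22.5, which is below background too. Whether these probe sets read the reconstituted construct is not known. The paralogue Akt2, whose product is the kinase PKBbeta, read 685, 750 and 710 in knockout cells and 705, 733 and 784 in wild-type cells. Its groups overlapped and its difference was -0.05 ± 0.14 on the log2 scale (model SE, adjusted p = 0.87).

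The lines differed in a large share of their genes at 24 h. Limma called 3399 of 18193 genes (18.7%), 1564 of them higher in the knockout (8.6%) and 1835 lower (10.1%), at a Benjamini-Hochberg adjusted p below 0.05. With the dimmer group set to the background level where it lay below it, 1547 of the called genes differed by over 2-fold and 103 by over 16-fold. The lower side held 85 of those 103 genes and the higher side 18. Without the 5 arrays of high ratio 4866 genes were called, 2446 of them higher, and with the compared groups alone in the fit 2200 genes, 871 of them higher. The median difference over all genes was -0.016 as deposited and 0.156 after setting array medians equal, a shift that moved the calls to 2235 higher of 3570. List medians below are as deposited and move with that shift. List counts below stand beside 8.6% of all genes higher and 10.1% lower. In 6655 genes (36.6%) the 3 arrays of one line all lay beyond the 3 of the other, which includes 3353 of the called genes.

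The genes with the largest folds were close to an on or off pattern, with a bright signal in one line and a signal at or near background in the other. Rpl39l, a paralogue of the ribosomal protein gene Rpl39 known mainly from testis, read 8809, 7324 and 7000 in knockout cells, against 18.9, 31.5 and 20.5 in wild-type cells. That is at least 159-fold higher in the knockout (adjusted p = 2e-09). Rps4l, a paralogue of the ribosomal protein gene Rps4x, showed the opposite pattern with 5.91, 5.57 and 21.4 in knockout cells and 7121, 7686 and 8297 in wild-type cells, at least 159-fold lower in the knockout (adjusted p = 2.9e-10). Each of these paralogues was read by 1 probe set, so cross-hybridization with its relatives was not tested. At 24 h the line labelled R averaged 7742 for Rpl39l and 2.17 for Rps4l. That line did not match the knockout in each gene of large fold. For Actg2 it averaged 393, beside 2911 in knockout and 104 in wild-type cells.

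Transcription factors that pattern the body axis and connective tissue stood among the higher genes. Zic1, a zinc finger factor of neural and dorsal mesoderm development, read 2874, 2939 and 2610 in knockout cells and 10.2, 1.08 and 1.59 in wild-type cells, at least 58-fold higher (adjusted p = 8.8e-10). Sox11, an HMG box factor of progenitor cells, was at least 26.8-fold higher. Tnmd, the tendon and ligament membrane protein tenomodulin, read 2952, 3336 and 4017 in knockout cells, against 21.6, 41.4 and 27.2 in wild-type cells (at least 70.5-fold, adjusted p = 1.1e-09). Other secreted or matrix proteins on this side were Abi3bp with 1271, 2591 and 2231 in knockout and 116, 68.8 and 58.2 in wild-type cells (25.1-fold), and Dpt, which encodes the matrix protein dermatopontin (at least 15.6-fold). Ripk3, the kinase that carries out necroptosis, read 1355, 1364 and 1057 in knockout cells and 45.5, 33.8 and 7.03 in wild-type cells (at least 25.9-fold, adjusted p = 1.2e-06). Actg2, the enteric smooth muscle actin, was 27.9-fold higher and Adm, the vasodilator peptide adrenomedullin, at least 17-fold. The 20 largest folds higher ranged from at least 15.3 (Syt13) to at least 159, picked among called genes whose groups do not overlap.

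Markers of mesothelium, the epithelium that lines body cavities, led the lower genes. Upk3b, a uroplakin made by mesothelium and urothelium, read 38.7, 26.9 and 32 in knockout cells and 12646, 14201 and 15150 in wild-type cells, at least 289-fold lower in the knockout (adjusted p = 1.4e-07). Lrrn4 was at least 131-fold lower, Upk1b at least 127-fold, the transcription factor gene Wt1 at least 53.8-fold and Msln, which encodes mesothelin, at least 9.83-fold (2.14 to 31 in knockout cells and 400 to 536 in wild-type cells). Of the 6 mesothelial markers 5 were thus lower, and Krt19, with 53.1, 92.3 and 103 in knockout and 46, 59.1 and 82.3 in wild-type cells, did not pass (adjusted p = 0.53). The summed intensity of the 6 markers was 164 to 247 in knockout cells, with 1 or 2 of them above background, and 27473 to 31504 in wild-type cells, with 5 or 6 above background. Of 13 epithelial markers 2 were lower (5 with log2(value + 50)), Krt14 (at least 16.1-fold) and Krt7 (at least 6.6-fold), while Cdh1, the epithelial cadherin, lay below background in both lines at 6.04 and 20.3. The part of these cells or of this expression programme in the other differences of this comparison was not tested. In bulk RNA fewer cells of a type and less RNA per cell cannot be told apart.

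**Figure D1:**
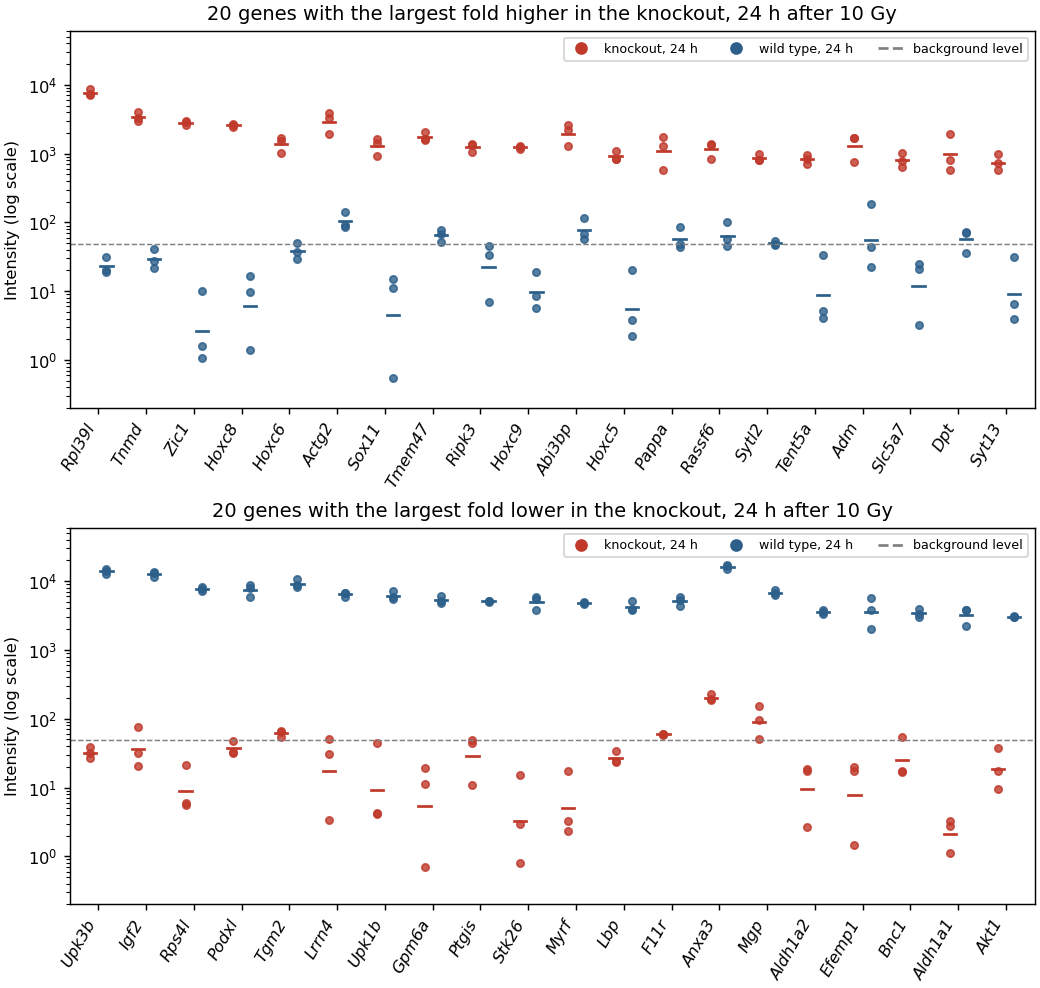
Intensity on a log axis of the 20 genes with the largest fold higher (top) and lower (bottom) in the knockout at 24 h after 10 Gy, with knockout arrays (red) left of wild-type arrays (blue), bars at geometric means of 3 arrays and a dashed line at the background level of 48.3. The 40 genes were picked among called genes whose 3 knockout arrays do not overlap the 3 wild-type arrays.

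Other lower genes of large fold had varied roles. Igf2, the fetal growth factor expressed from the paternal allele, read 20.3, 31.8 and 76.6 in knockout cells, against 12967, 11594 and 13659 in wild-type cells, at least 226-fold lower (adjusted p = 8.8e-10). Aldh1a1 and Aldh1a2, enzymes that make retinoic acid, were at least 66.2-fold and at least 73.7-fold lower. Tgm2, a transglutaminase that crosslinks matrix proteins and is induced by retinoic acid, read 64.6, 67.3 and 53.7 in knockout and 8138, 8669 and 10665 in wild-type cells (148-fold, adjusted p = 1.2e-10). Podxl, a sialomucin of podocytes and mesothelium, was at least 153-fold lower, and Bnc1, a zinc finger factor of basal epithelia, at least 67.8-fold. F11r, a tight junction adhesion molecule, averaged 59.5 in knockout and 5171 in wild-type cells (87-fold), and Anxa3, an annexin, 202 and 16201 (80.3-fold). Mgp, an inhibitor of calcification, was 74.8-fold lower and Ptgis, the prostacyclin synthase, at least 106-fold. Akt1 had the smallest fold of the 20 on this side.

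Several targets of p53, Cdkn1a among them, were lower in the knockout line. Of 38 measured targets 8 were lower and 1 higher, beside 10.1% of all genes lower and 8.6% higher. Their median difference was -0.25 beside -0.02 over all genes (-0.08 beside 0.156 with equal array medians). Cdkn1a, the gene of p21, which inhibits cyclin-dependent kinases, read 321, 484 and 354 in knockout cells and 1363, 1963 and 2394 in wild-type cells (-2.29 ± 0.39, 4.88-fold lower, adjusted p = 0.00021). Ccng1, which encodes cyclin G1, read 1957, 1833 and 1562 in knockout cells, against 5851, 8338 and 6987 in wild-type cells (-1.98 ± 0.22, adjusted p = 1.5e-06). The groups of both genes were well apart. Mdm2 read 838, 827 and 817 in knockout cells and 1519, 2364 and 3010 in wild-type cells. These did not overlap either, yet its difference of -1.42 ± 0.53 did not pass (adjusted p = 0.069, 9.2e-05 to 0.21 over the alternatives), and another probe set of it passed with -1.08 (adjusted p = 0.0053 over probe sets).

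Other p53 targets were lower as well. Trp53inp1, a nuclear stress protein, read 141, 205 and 337 in knockout cells and 1735, 1916 and 1492 in wild-type cells (-3.00 ± 0.41, 7.98-fold lower, adjusted p = 2.3e-05). Eda2r, a death receptor of the TNF receptor family, was below background in knockout cells at 32.3, 6.17 and 1.18 and read 179, 244 and 206 in wild-type cells, at least 4.31-fold lower (adjusted p = 0.0011, and 0.057 in the fit on the compared groups only). Psrc1, a spindle protein, read 530, 594 and 425 in knockout and 1500, 1450 and 1516 in wild-type cells (-1.54 ± 0.23). Zmat3, an RNA-binding protein, averaged 488 in knockout and 1264 in wild-type cells (-1.37 ± 0.23). The remaining lower members, named after their values were seen, were Pidd1 (-0.86, adjusted p = 0.035) and Rrm2b (-0.38, adjusted p = 0.04), and the higher one was the polo-like kinase gene Plk2 (0.63, adjusted p = 0.024). Of the pro-apoptotic targets, Bbc3 averaged 206 in knockout and 142 in wild-type cells and Pmaip1 83.8 and 47.5 (adjusted p = 0.21 and 0.52). Over the alternatives 6 to 11 of these targets were lower and 0 to 3 higher.

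Genes of mitosis were higher in the knockout line. Of 49 measured members 22 were higher and none lower, against 8.6% of all genes higher, with a median difference of 0.50. Ttk, a kinase of the spindle checkpoint, read 1753, 1769 and 1625 in knockout cells and 873, 701 and 723 in wild-type cells (1.17 ± 0.12, 2.25-fold higher, adjusted p = 5.1e-07). Subunits of the kinetochore complex that binds microtubules went the same way. Ndc80 read 1652, 1653 and 1437 in knockout and 841, 603 and 770 in wild-type cells (1.11 ± 0.16), and Nuf2 read 1515, 1156 and 864 in knockout and 543, 347 and 399 in wild-type cells (1.44 ± 0.21). The cytokinesis genes Prc1 (0.84 ± 0.14) and Kif4 (0.89 ± 0.16) were 1.79-fold and 1.85-fold higher. Cdk1, the kinase that drives entry into mitosis, averaged 7024 in knockout and 6345 in wild-type cells and did not pass (adjusted p = 0.73). Neither did Cdc20, an activator of the anaphase-promoting complex, at 4956 and 4985 (adjusted p = 0.99). The count was 12 with the compared groups only and 36 without the 5 arrays of high ratio. It was 14 without replicate 0 of the knockout.

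The promoters of mitotic genes are known for a pair of short elements, the CHR, which the DREAM complex and B-Myb bind, and the CCAAT box, which NF-Y binds. The windows below hold both elements and belong to mitosis genes that were higher in the knockout. The genes are Kif22, a chromosome arm kinesin, and Mki67, which encodes the Ki-67 protein that coats mitotic chromosomes. Each window is the 250 bases before the transcription start in RefSeq (GRCm38.p6), 5' to 3' on the gene's strand, and capitals mark TTTGAA and CCAAT on either strand.
Kif22 (chr7:127042421-127042670, minus strand): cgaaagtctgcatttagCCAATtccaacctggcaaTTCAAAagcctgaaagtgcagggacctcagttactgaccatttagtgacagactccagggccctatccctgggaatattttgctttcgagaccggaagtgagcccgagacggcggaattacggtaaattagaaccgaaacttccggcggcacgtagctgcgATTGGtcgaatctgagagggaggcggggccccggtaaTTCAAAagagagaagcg
Mki67 (chr7:135716380-135716629, minus strand): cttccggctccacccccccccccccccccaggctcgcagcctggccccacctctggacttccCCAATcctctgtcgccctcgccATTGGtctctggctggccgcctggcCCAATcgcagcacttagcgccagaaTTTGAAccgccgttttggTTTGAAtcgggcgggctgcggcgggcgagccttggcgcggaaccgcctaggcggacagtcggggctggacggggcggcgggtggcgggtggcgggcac
Kif22 read 5111, 4826 and 4861 in knockout cells and 3056, 2984 and 2211 in wild-type cells (0.86 ± 0.23, adjusted p = 0.0096). Mki67 read 4634, 4346 and 4491 in knockout cells and 2963, 2237 and 2392 in wild-type cells (0.84 ± 0.23, adjusted p = 0.013). Both were chosen after their values were seen, as the called mitosis genes of smallest p whose window holds TTTGAA. On either strand TTTGAA was in the windows of 4 of 18 higher mitosis genes that have an entry (22.2%), of 12 of 40 mitosis genes (30.0%) and of 1726 of 14452 genes in all (11.9%). CCAAT was in 11 of 18 (61.1%), 29 of 40 (72.5%) and 5159 of 14452 (35.7%). A match of letters does not show that a factor binds there.

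**Figure D2:**
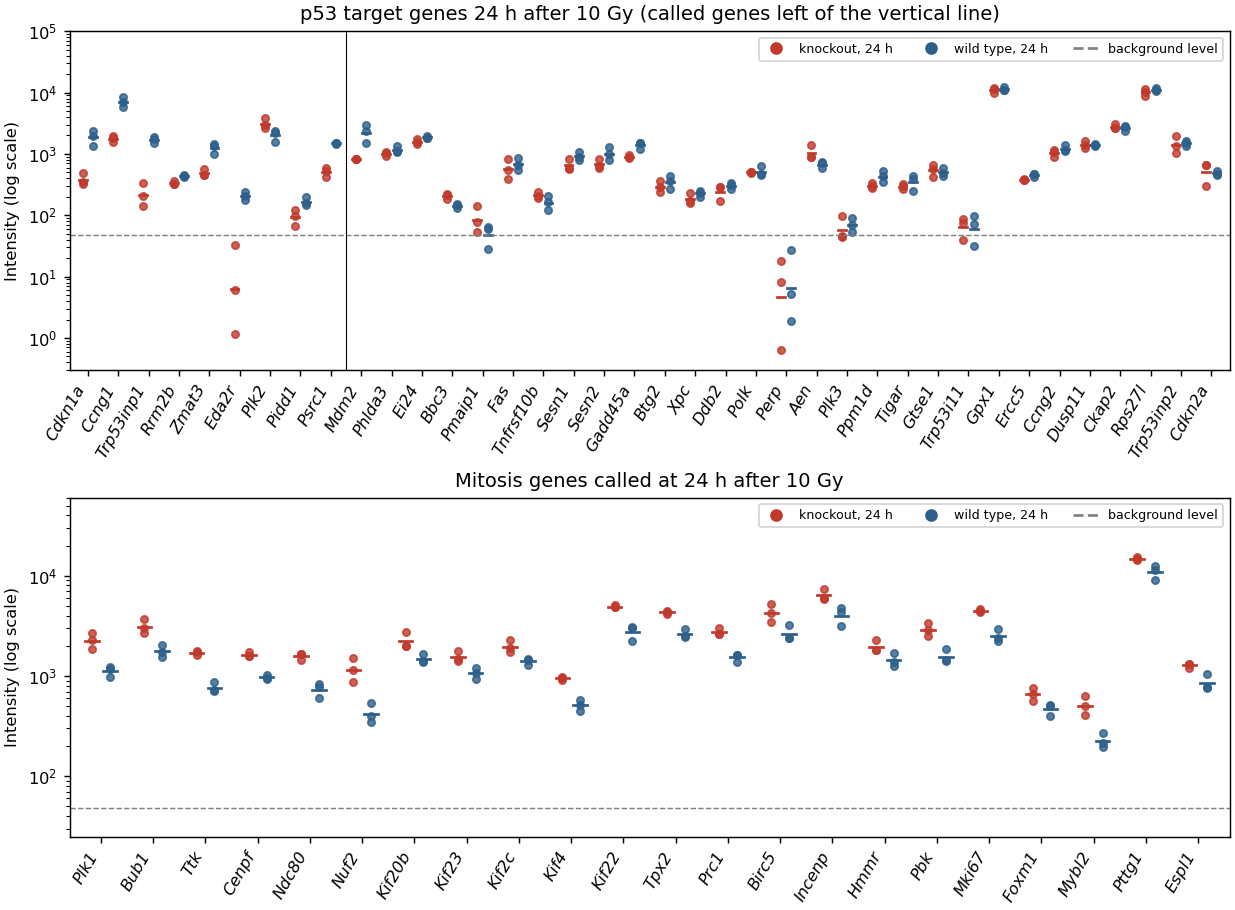
Intensity on a log axis of 38 p53 target genes (top, called genes left of the vertical line) and of the 22 called mitosis genes (bottom) at 24 h after 10 Gy, with knockout arrays (red) left of wild-type arrays (blue), bars at geometric means of 3 arrays and a dashed line at the background level of 48.3. Of the 9 called p53 targets 8 are lower in the knockout, and all 22 mitosis genes shown are higher.

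Part of the DNA replication and recombination genes were also higher in the knockout, and a few were lower. Of 46 replication genes 15 were higher and 2 lower (median 0.44), beside 8.6% of all genes higher, a count of 6 higher with the compared groups only, 28 without the 5 arrays and 8 with the mean of all probe sets. Uhrf1, which guides maintenance methylation at forks, read 4841, 5259 and 4089 in knockout cells and 2462, 2260 and 1882 in wild-type cells (1.10 ± 0.14, adjusted p = 7.1e-06). Ccne1, which encodes the G1/S cyclin E1, read 1573, 1379 and 1401 in knockout cells, against 639, 452 and 576 in wild-type cells (1.40 ± 0.25, adjusted p = 0.00032). E2f1, the transcription factor that drives S phase genes, read 966, 1111 and 1004 in knockout and 431, 555 and 617 in wild-type cells (0.96 ± 0.14, adjusted p = 5.5e-05, and 0.19 with the mean of its probe sets). Pole2, a subunit of DNA polymerase epsilon, was lower at 1053, 1007 and 783 in knockout and 1263, 1439 and 1605 in wild-type cells (-0.60 ± 0.12), a call lost with equal array medians (adjusted p = 0.12), on the compared groups only (0.1) and with the mean of its probe sets (0.21).

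Among 22 homologous recombination genes 8 were higher and 2 lower (median 0.41), with 4 higher on the compared groups only or without replicate 1 of the knockout, 13 without the 5 arrays or with equal array medians, and 5 when probe sets were averaged. Blm, the helicase mutated in Bloom syndrome, read 599, 832 and 653 in knockout cells and 267, 273 and 290 in wild-type cells (1.32 ± 0.16, 2.49-fold higher, adjusted p = 4.7e-06). Exo1, an exonuclease that resects breaks, averaged 946 in knockout and 507 in wild-type cells (adjusted p = 0.00026, and 0.22 with the mean of its probe sets). Of 22 genes of break sensing and end joining 4 were higher and 1 lower, with 2 higher on the compared groups only, with the mean of all probe sets, without replicate 0 of the knockout or without replicate 2 of the wild type, and 7 without the 5 arrays. Chek2, the checkpoint kinase downstream of ATM, was the lower one at 312, 260 and 237 in knockout and 414, 445 and 461 in wild-type cells (-0.72 ± 0.17, adjusted p = 0.0041). Mdc1, the mediator that binds phosphorylated H2AX, read 801, 851 and 721 in knockout and 498, 520 and 430 in wild-type cells (0.71 ± 0.17, adjusted p = 0.004). Atr, the kinase that responds to stalled forks, averaged 518 in knockout and 347 in wild-type cells (0.58 ± 0.14), a call lost on the compared groups only (adjusted p = 0.067) and with the mean of its probe sets (0.53).

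Genes of the PI3 kinase pathway differed no more often than genes in general. Of 26 measured members, Akt1 included, 3 were higher and 2 lower, which is close to the 18.7% called over all genes, with a median of -0.07 (0.10 with equal array medians). Equal array medians gave 5 higher, and 5 were lower without the 5 arrays. Pik3cb, a catalytic subunit of PI3 kinase, read 122, 101 and 102 in knockout cells and 358, 314 and 306 in wild-type cells (-1.59 ± 0.22, 3-fold lower, adjusted p = 1.8e-05). Phlpp1, the phosphatase that dephosphorylates the PKB hydrophobic motif, read 1015, 989 and 995 in knockout cells, against 359, 467 and 390 in wild-type cells (1.31 ± 0.13, 2.48-fold higher, adjusted p = 3e-07). The other higher members, the regulatory subunit gene Pik3r3 (0.46) and Phlpp2 (0.44), lost their calls without replicate 1 of either line. Pik3r3 also lost it without replicate 0 of the wild type and Phlpp2 without replicate 2 of the knockout.

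FOXO targets did not move together. Of 23 measured factors and targets 4 were higher and 2 lower, beside 8.6% of all genes higher and 10.1% lower. Their median was -0.22 (-0.04 with equal array medians), and 6 were lower without the 5 arrays. Fbxo32, the ubiquitin ligase atrogin-1, read 1458, 1242 and 2047 in knockout cells and 204, 135 and 196 in wild-type cells (3.14 ± 0.43, 8.84-fold higher, adjusted p = 2.2e-05). Sod2, the mitochondrial superoxide dismutase, read 7879, 8340 and 7816 in knockout and 5142, 3986 and 3590 in wild-type cells (0.93 ± 0.15). Klf4, a growth-arrest factor, went the other way with 328, 259 and 259 in knockout cells and 1230, 2067 and 1560 in wild-type cells (-2.50 ± 0.24, 5.65-fold lower, adjusted p = 2.5e-07). In the BCL2 family, which controls mitochondrial apoptosis, 4 of 17 members were higher and none lower by their brightest probe sets. Mcl1, an anti-apoptotic member, read 3546, 2638 and 2877 in knockout cells and 4883, 4905 and 3933 in wild-type cells by that probe set (-0.60 ± 0.24, adjusted p = 0.085). Averaged over 6 probe sets it was lower (-0.90, adjusted p = 5.8e-05), and 4 of these probe sets passed by themselves. Bid, a pro-apoptotic BH3 protein, read 2758, 2761 and 2472 in knockout cells and 711, 756 and 848 in wild-type cells (1.79 ± 0.19, 3.46-fold higher, adjusted p = 9.5e-07). Bok, a pro-apoptotic effector, read 1818, 1220 and 1505 in knockout and 422, 352 and 396 in wild-type cells (1.94 ± 0.22, adjusted p = 1.7e-06). The other higher members, Bcl2l12 (adjusted p = 0.029) and Bak1 (adjusted p = 0.049), lost their calls without replicate 1 of either line. Without replicate 0 of the wild type the 2 genes lost them too, and Bak1 did so without any 1 of the 6 arrays (adjusted p of 0.058 to 0.14).

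Homeobox genes of the HOX clusters, whose expression records the body region a cell came from, separated the lines by cluster. In the Hoxc cluster 5 of 7 measured genes were higher in the knockout, and in the Hoxb cluster 6 of 9 and in the Hoxa cluster 4 of 9 were lower, while none of 8 Hoxd genes passed. Hoxc8 read 2425, 2679 and 2597 in knockout cells and 1.39, 16.5 and 9.76 in wild-type cells, at least 53.1-fold higher (adjusted p = 1.2e-07). Hoxc6 was at least 28.1-fold higher, Hoxc9 at least 25.7-fold, Hoxc5 at least 18.9-fold and Hoxc10 at least 3.54-fold. The wild-type line lay below background for Hoxc5, Hoxc8, Hoxc9 and Hoxc10 on all of its arrays. Hoxc4 averaged 106 in knockout and 32.5 in wild-type cells and did not pass (adjusted p = 0.09), and Hoxc13 was lower, at 28.4 in knockout and 126 in wild-type cells (adjusted p = 0.018).

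Anterior genes of the other clusters were high in the wild-type line. Hoxb2 read 1.48, 5.84 and 5.41 in knockout cells and 983, 1097 and 1253 in wild-type cells, at least 22.9-fold lower in the knockout (adjusted p = 1.3e-07). Its neighbours Hoxb3 (at least 14.2-fold), Hoxb4 (at least 7.38-fold), Hoxb6 (at least 4.91-fold) and Hoxb5 (at least 3.31-fold) followed, and their knockout averages lay below background. The other lower gene of the cluster, Hoxb1, lay below background in both lines. Hoxa5 read 234, 195 and 264 in knockout cells and 1511, 1588 and 1957 in wild-type cells (-2.87 ± 0.21, 7.31-fold lower, adjusted p = 5.6e-09). Hoxa3 averaged 127 in knockout and 488 in wild-type cells (3.84-fold lower), Hoxa4 83.4 and 225 (2.69-fold) and Hoxa2 19.9 and 197 (at least 4.08-fold). Hoxa7 averaged 333 in knockout and 231 in wild-type cells (adjusted p = 0.27). Of the Hoxd genes Hoxd8 alone reached the background level, at 60.6 in knockout and 116 in wild-type cells (adjusted p = 0.47). All measured members of the 4 clusters are counted here, also those outside the rule for named genes.

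**Figure D3:**
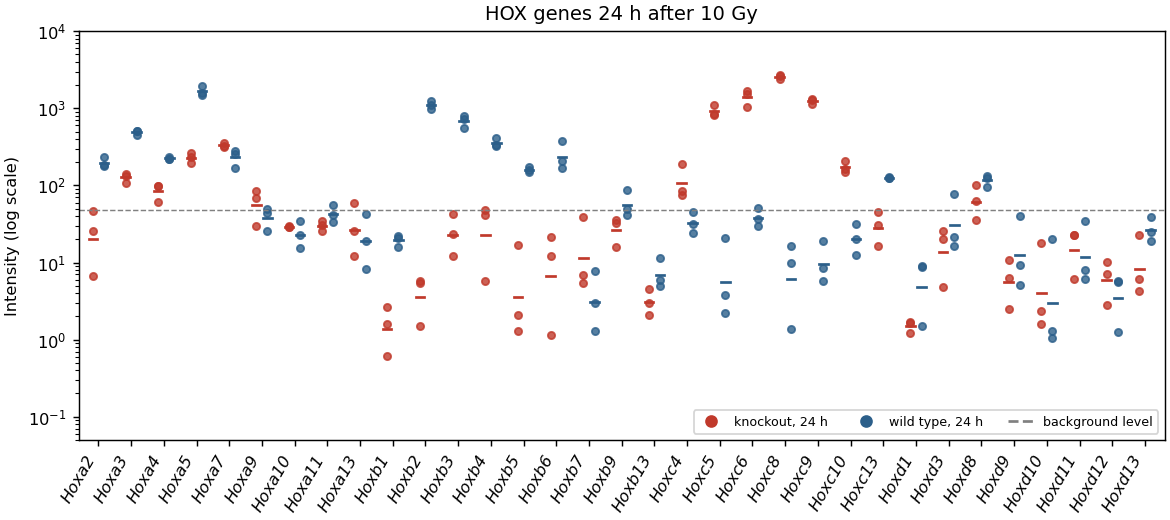
Intensity on a log axis of the 33 measured HOX genes in cluster order at 24 h after 10 Gy, with knockout arrays (red) left of wild-type arrays (blue), bars at geometric means of 3 arrays and a dashed line at the background level of 48.3. Hoxc5 to Hoxc10 stand high in the knockout, while Hoxb2 to Hoxb6 and Hoxa2 to Hoxa5 stand high in the wild type.

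Other lineage factors of mesenchyme also split between the lines, with 17 of 64 measured members higher and 14 lower (9 lower on the compared groups only). Shox2, a factor of proximal limb and sinoatrial development, read 1696, 1948 and 1833 in knockout cells and 658, 452 and 572 in wild-type cells (1.72 ± 0.16, 3.29-fold higher, adjusted p = 1.2e-07). Ebf1, a helix-loop-helix factor of adipocyte and B cell development, was 10.9-fold higher at 753 in knockout and 68.9 in wild-type cells. Tcf21, a factor of visceral and epicardial mesoderm, read 6.33, 4.82 and 3.63 in knockout cells, against 2929, 2241 and 2009 in wild-type cells, at least 48.9-fold lower (adjusted p = 1.8e-07). Gata6, a factor of heart and endoderm, read 36.3, 30.1 and 52.1 in knockout and 2052, 2479 and 1809 in wild-type cells (at least 42.3-fold lower, adjusted p = 3.8e-07). Like Wt1, both Tcf21 and Gata6 were thus at or near background in the line where 5 of the 6 mesothelial markers were lower.

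Endothelial and leukocyte markers were sparse in both lines. Of 10 endothelial markers only the receptor gene Kdr reached background in a group average, with 46.5, 30.8 and 49.6 in knockout and 208, 509 and 576 in wild-type cells (at least 8.08-fold lower, adjusted p = 0.00021). Pecam1 was called higher below background, at 17 in knockout and 3.22 in wild-type cells (adjusted p = 0.025), a call lost on the compared groups only. Of 12 leukocyte markers 3 reached background in a group average, and Cd68 was at least 1.91-fold lower at 55.8 in knockout and 107 in wild-type cells. The summed intensity of the leukocyte markers was 404 to 533 in knockout and 433 to 656 in wild-type cells. Smooth muscle genes were high in both lines but unequal, with 2 of 15 higher and 4 lower, or 2 lower without replicate 0 of either line. Myl9, the regulatory myosin light chain, read 11710, 8245 and 12360 in knockout cells and 1249, 766 and 696 in wild-type cells (3.60 ± 0.29, 12.1-fold higher, adjusted p = 2.1e-08). Cnn1, which encodes calponin, read 166, 204 and 251 in knockout cells, against 1412, 1536 and 2208 in wild-type cells (-3.05 ± 0.52, 8.26-fold lower, adjusted p = 0.00025). Among the fibroblast markers Thy1, a surface glycoprotein, was 5.97-fold higher in the knockout (11512 to 12913 against 1953 to 2223 in wild-type cells) and the proteoglycan decorin (Dcn) 3.72-fold lower (2895 to 5397 against 13409 to 16629). Of 9 neural markers 2 were higher and none lower, with 7 positive and 2 negative differences. Tubb3, a tubulin used as a neuronal marker, was 9.22-fold higher, and the other, Nes, lost its call with the mean of its probe sets. Of 8 adipocyte markers 1 was called, Lpl, lipoprotein lipase, lower at 7121 in knockout and 21468 in wild-type cells. Differences were positive for 3 of the 8 and negative for 5, and Cebpa averaged 225 in knockout and 130 in wild-type cells (adjusted p = 0.092).

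The IGF system and imprinted growth genes were lower in the knockout more often than genes in general. Of 32 measured members 10 were lower and 3 higher, beside 10.1% of all genes lower, while their median was -0.23 as deposited and -0.06 with equal array medians. Besides Igf2, the imprinted adaptor Grb10 read 32, 50.7 and 21.8 in knockout cells and 2204, 2564 and 2415 in wild-type cells, at least 48.7-fold lower (adjusted p = 1.7e-09). Peg3, a zinc finger gene expressed from the paternal allele, read 1070, 1394 and 1509 in knockout cells, against 6087, 8141 and 8449 in wild-type cells (-2.51 ± 0.17, adjusted p = 2e-09). The binding proteins that hold IGFs outside the cell followed, with Igfbp2 at least 58.3-fold lower and Igfbp6 16.7-fold lower. Igf2bp3, which binds Igf2 mRNA, was higher at 2427, 2578 and 2753 in knockout and 378, 269 and 340 in wild-type cells (2.99 ± 0.29, adjusted p = 2.3e-07).

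Growth factor receptors and ligands were divided, with 8 of 55 higher and 18 lower, beside 8.6% and 10.1% of all genes. Egfr, the EGF receptor, read 324, 351 and 384 in knockout cells and 1081, 1188 and 1451 in wild-type cells (-1.80 ± 0.13, 3.49-fold lower, adjusted p = 4.6e-09). Fgf18 lay below background in the knockout at 34.7, 28.7 and 43.1 and read 635, 931 and 1010 in wild-type cells (at least 17.4-fold lower). Of the higher ligands, Pdgfc, which activates the PDGF alpha receptor, read 4676, 4380 and 4708 in knockout cells and 974, 943 and 807 in wild-type cells (2.34 ± 0.13, 5.07-fold, adjusted p = 2e-10). Ptn, the heparin-binding factor pleiotrophin, was 7.07-fold higher and Angpt1, the ligand of the Tie2 receptor, at least 14.6-fold.

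Of 47 Wnt pathway genes 19 were lower in the knockout and 4 higher, beside 10.1% and 8.6% of all genes. Their median was -0.69. The ligand Wnt4 read 47.4, 15.4 and 49.9 in knockout cells and 1396, 1397 and 1883 in wild-type cells, at least 31.6-fold lower (adjusted p = 3.9e-09). Wnt11 averaged 85.3 in knockout and 500 in wild-type cells (5.86-fold lower) and the receptor gene Fzd6 265 and 1404 (5.3-fold lower). Ccnd1, the G1 cyclin gene that Wnt signals and growth factors raise, read 2770, 2131 and 2469 in knockout cells, against 6120, 7464 and 6598 in wild-type cells (-1.46 ± 0.18, adjusted p = 4.9e-06). Rspo2, a secreted amplifier of Wnt signals, went the other way with 1571, 2069 and 2285 in knockout and 328, 101 and 78.6 in wild-type cells (14.2-fold higher, adjusted p = 8.3e-07). Over the alternatives, filters on dim genes aside, 13 to 21 members were lower and 2 to 5 higher, with 2 higher without replicate 1 of the knockout or replicate 2 of the wild type.

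Of 44 genes of TGF-beta and BMP signalling 13 were lower and 5 higher, beside 10.1% and 8.6% of all genes. Their median was -0.21 (-0.04 with equal array medians). The ligand Bmp4 read 277, 670 and 643 in knockout cells and 8098, 7630 and 8261 in wild-type cells (-4.02 ± 0.29, 16.2-fold lower, adjusted p = 4.7e-09). Bmp2 was below background in the knockout and read 248, 944 and 295 in wild-type cells (at least 8.49-fold lower). Grem1, a secreted antagonist of both ligands, read 13097, 11023 and 11293 in knockout cells, against 3005, 2351 and 2845 in wild-type cells (2.11 ± 0.34, 4.33-fold higher, adjusted p = 0.00013). Id2, a target of BMP signals, read 721, 202 and 407 in knockout and 3277, 3701 and 1933 in wild-type cells (7.35-fold lower, adjusted p = 9.4e-06). The groups of these 4 genes did not overlap, as was so for 3353 of the 3399 called genes and for 36.6% of all genes. Chrd, which encodes the antagonist chordin and was named after its values were seen, was lower at 40 in knockout and 168 in wild-type cells (adjusted p = 0.023).

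Extracellular matrix genes differed often and in both directions. Of 27 collagens 6 were higher and 6 lower, of 49 other matrix genes 16 were higher and 11 lower, and of 33 proteases and inhibitors 9 were higher and 10 lower. Over all genes 8.6% were higher and 10.1% lower. On the compared groups only, 10 other matrix genes and 5 proteases and inhibitors were higher. Col6a3, of the beaded filament collagen VI, read 7554, 9686 and 10160 in knockout cells and 1025, 999 and 1275 in wild-type cells (3.05 ± 0.22, 8.29-fold higher, adjusted p = 4.7e-09). The basement membrane genes Col4a6 and Lama5 were lower, at least 21.5-fold and 10.5-fold. Postn, the matricellular protein periostin, read 17557, 14815 and 18188 in knockout cells, against 1615, 2384 and 2288 in wild-type cells (3.02 ± 0.27, adjusted p = 9.3e-08). Loxl1, an enzyme that crosslinks elastin, averaged 674 in knockout and 5804 in wild-type cells (8.62-fold lower). Among the inhibitors Timp3, of metalloproteases, was 8.87-fold lower and Serping1, of complement C1, read 128, 92.5 and 140 in knockout and 3564, 3587 and 3706 in wild-type cells (30.6-fold lower, adjusted p = 2e-10). Mmp3, stromelysin 1, read 1617, 1613 and 1591 in knockout cells and 10302, 5266 and 5206 in wild-type cells (4.08-fold lower), and Adamts1 was 4.52-fold higher.

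Class I antigen presentation was higher in the knockout line. Of 12 measured genes 8 were higher and none lower, with a median of 1.33, and 5 to 9 were higher under the alternatives. The count was 5 without replicate 1 or 2 of the knockout, without replicate 0 or 1 of the wild type, or on the compared groups only. The classical heavy chain gene H2-D1 read 5828, 5332 and 5576 in knockout cells and 1441, 1048 and 900 in wild-type cells (2.33 ± 0.20, 5.03-fold higher, adjusted p = 4.8e-08). H2-K1 read 1995, 2659 and 3096 in knockout cells, against 837, 823 and 1100 in wild-type cells (1.48 ± 0.22, adjusted p = 5.3e-05). These genes are alike in sequence and their probe sets may share signal, and the strain of each line is not given. H2-M3, a non-classical chain, averaged 1199 in knockout and 423 in wild-type cells (2.84-fold). Nlrc5, the factor that activates class I genes, was at least 4.04-fold higher at 172, 231 and 395 in knockout and 36.1, 84.6 and 58.3 in wild-type cells (adjusted p = 0.0056). The immunoproteasome subunit gene Psmb8 was 4.62-fold higher (adjusted p = 0.00064, 0.052 on the compared groups only and 0.094 with the mean of its probe sets), whereas B2m, the shared light chain, averaged 18915 in knockout and 13602 in wild-type cells and did not pass (adjusted p = 0.057).

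Of 58 interferon-stimulated genes 12 were higher and 5 lower (median 0.17), beside 8.6% and 10.1% of all genes. On the compared groups only 6 were higher, and without replicate 1 of the wild type 7. Psmb8, Psmb9, Psmb10, Tap1, Tap2 and Tapbp belong to this list and to the class I list. Cgas, the sensor of cytosolic DNA, read 874, 574 and 641 in knockout cells and 102, 75.2 and 88.1 in wild-type cells (2.96 ± 0.24, 7.81-fold higher, adjusted p = 1.8e-08). Samd9l and Lgals3bp were 2.45-fold and 2.54-fold higher. Isg20, an RNA exonuclease, was lower at 120, 169 and 108 in knockout and 667, 723 and 653 in wild-type cells (-2.39 ± 0.26), and so was the GTPase gene Irgm1 (2.13-fold). The interferon response motif, GAAA, any 2 bases and GAAA again on either strand of the 250 bases before the start, was in 1 of 9 higher interferon-stimulated genes that have an entry (11.1%), in 13 of 44 of all listed (29.5%), in 0 of 6 higher class I genes and in 380 of 14452 genes (2.6%).

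Of 35 chemokines and NF-kappaB genes 9 were higher and 7 lower, with 4 higher without replicate 1 and 5 without replicate 2 of the wild type. Ccl9, a chemokine for monocytes, read 1759, 1716 and 2882 in knockout cells and 390, 165 and 202 in wild-type cells (3.13 ± 0.35, 8.76-fold higher, adjusted p = 1.5e-06). Il33, an alarmin, read 147, 91.6 and 85.9 in knockout cells and 2802, 1332 and 1307 in wild-type cells (16.2-fold lower). Cxcl15, the lungkine chemokine, was below background in the knockout and at least 44.1-fold lower. Saa3, an acute phase protein, averaged 6869 in knockout and 18118 in wild-type cells (2.64-fold lower). Of 36 immediate early genes, which serum and stress induce within minutes, 10 were higher and 5 lower. The orphan receptor genes Nr4a1 (3.08-fold) and Nr4a2 (3.36-fold) and Ier2 (2.54-fold) were higher, and Dusp5, an ERK phosphatase, read 138, 109 and 181 in knockout cells, against 783, 1001 and 872 in wild-type cells (6.31-fold lower, adjusted p = 3.4e-05).

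Some detoxification and lysosome genes were lower in the knockout, and a few were higher. Of 31 NRF2 and glutathione genes 11 were lower and 3 higher (median -0.29, with 7 lower on the compared groups only), and of 38 lysosome genes 9 were lower and 2 higher (median -0.41), beside 10.1% of all genes lower and 8.6% higher. Gsta4, a glutathione transferase for lipid aldehydes, read 166, 275 and 135 in knockout cells and 4892, 5284 and 5642 in wild-type cells (-4.84 ± 0.34, 28.7-fold lower, adjusted p = 3.9e-09). Mgst1, the microsomal transferase, averaged 1994 in knockout and 16260 in wild-type cells (8.15-fold lower), and Cyp1b1, a target of the aryl hydrocarbon receptor, 1429 and 10173 (7.12-fold lower). Gsto1, the omega transferase, was the reverse at 9861, 8390 and 8829 in knockout and 2750, 3679 and 3619 in wild-type cells (2.71-fold higher). Of the lysosomal enzymes Manba, a mannosidase, read 179, 191 and 218 in knockout cells and 829, 943 and 933 in wild-type cells (4.61-fold lower, adjusted p = 7e-08) and Gusb, a glucuronidase, was 1.81-fold lower. Ctsk, the collagen-degrading cathepsin K, was at least 13.2-fold higher. The lysosome count was 4 lower without replicate 0 of the knockout or on the compared groups only, 5 without replicate 2 of the wild type and 15 without the 5 arrays of high ratio, and 4 of 38 is close to the share of all genes.

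Genes of glycolysis and hypoxia, processes in which PKB is known to act, were lower in 8 of 30 cases and higher in 1. The higher one was the Adm gene named above. Those counts stand beside 10.1% of all genes lower and 8.6% higher. The list median was -0.01 (0.16 with equal array medians, where 5 were higher). On the compared groups only, 4 were lower. Pfkfb3, which makes the activator of phosphofructokinase, read 253, 218 and 176 in knockout cells and 833, 645 and 790 in wild-type cells (-1.82 ± 0.25, 3.52-fold lower, adjusted p = 2.2e-05). Egln3, an oxygen-sensing prolyl hydroxylase, was at least 19.4-fold lower and Eno2, the neuronal enolase, 3.23-fold. Of 20 cholesterol synthesis genes 4 were higher and none lower (median 0.45), led by Dhcr7, the last enzyme of the pathway, at 571, 660 and 807 in knockout and 277, 312 and 449 in wild-type cells (0.99 ± 0.18, adjusted p = 0.00049). None of these 4 calls held in the fit on the compared groups only, 2 were left without replicate 2 of the knockout, and equal array medians gave 9. In fatty acid synthesis 1 of 16 genes was higher, the acyl-CoA ligase gene Acsl3 (2.15-fold, a call lost on the compared groups only), and 2 were lower. Of 28 genes of the ATF4 amino acid response 2 were higher (0 without replicate 1 of either line) and 4 lower. The counts of both lists are not far from the shares over all genes, 8.6% higher and 10.1% lower. The 2 higher ATF4 genes, Cth and Slc7a5, lost their calls without replicate 1 or 2 of either line. Among the lower ones was the hormone gene Fgf21, which was below background in the knockout and at least 6.22-fold lower.

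**Figure D4:**
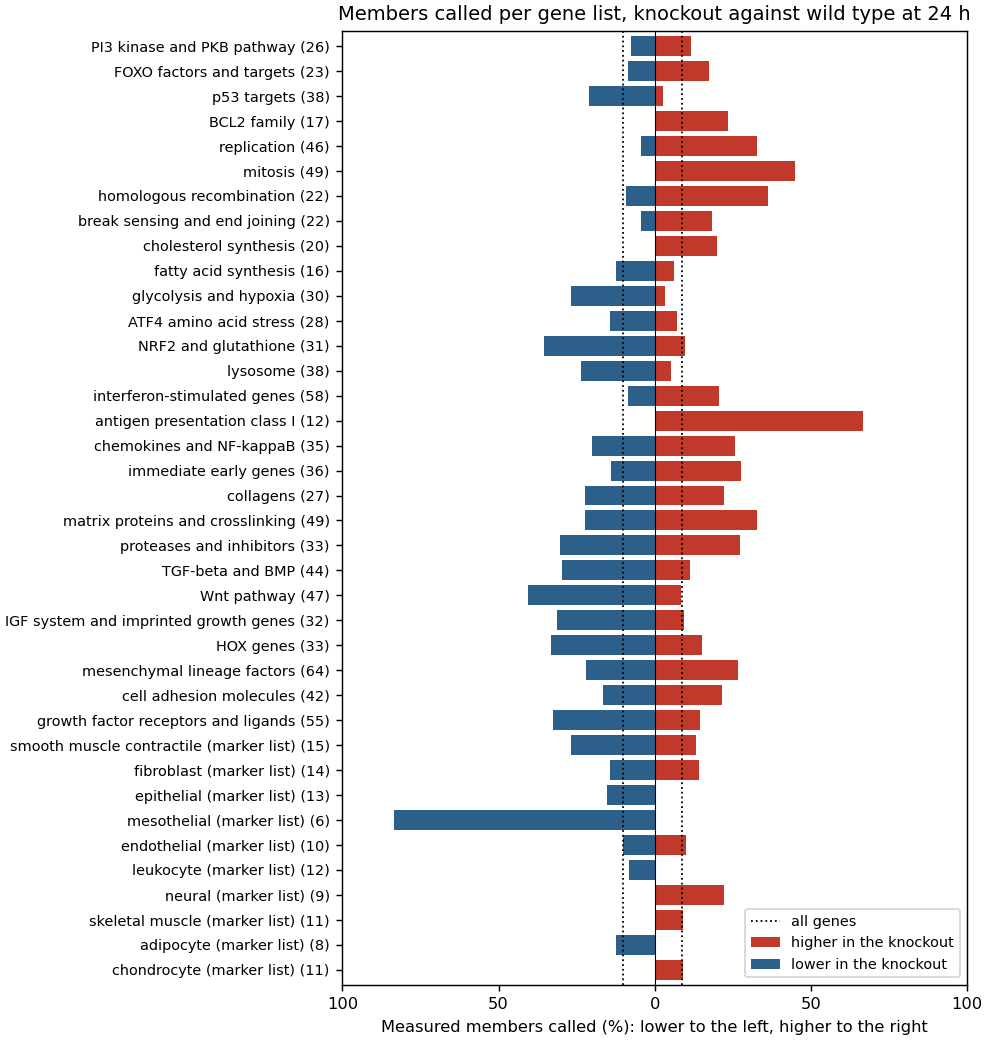
Share of measured members (x axis, percent, list sizes in parentheses) called lower (blue, to the left) and higher (red, to the right) in the knockout at 24 h for each gene list, with dotted lines at the shares over all genes, 10.1% lower and 8.6% higher. Class I antigen presentation and mitosis reach farthest on the higher side, and mesothelial markers and Wnt pathway genes farthest on the lower side.

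The next comparison asked which of these differences were specific to cells at 24 h after irradiation. The same difference between the lines was taken in untreated cells. Its group means come from other arrays than those at 24 h, though the fit shares 1 estimate of spread over all arrays and the lines are the same. There limma called 3202 genes (17.6%), 1413 higher (7.77%) and 1789 lower (9.83%), of which 2506 were called at 24 h too, all of them in the same direction. That is 73.7% of the calls at 24 h and 78.3% of the calls in untreated cells. Over all 18193 genes the differences at both times correlated with r = 0.68, and over the 11738 genes that lay above background at 24 h with r = 0.93. Both are descriptions across genes, which are not independent and come from the same lines. At 4 h limma called 2685 genes (14.8%), 1073 higher (5.9%) and 1612 lower (8.86%), of which 2033 were called the same way at 24 h (59.8% of the 24 h calls, 75.7% of the 4 h calls) and 1 the opposite way. Igf2 is an example among the genes of large fold. It averaged 83 in knockout and 12596 in wild-type cells untreated, 39.6 and 8758 at 4 h, and 36.7 and 12711 at 24 h.

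**Figure D5:**
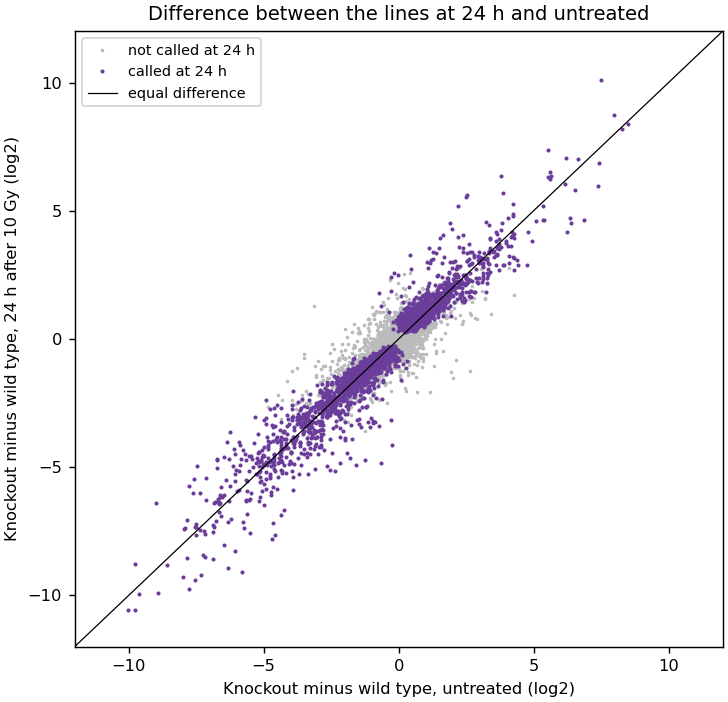
Difference between knockout and wild type in log2 units at 24 h after 10 Gy (y axis) against the same difference in untreated cells (x axis), 1 point per gene above background at 24 h, with genes called at 24 h in purple, others in grey and a line of equal difference. The points run along the line, with r = 0.93 over these 11738 genes, which were picked by their level at 24 h, and r = 0.68 over all genes, dim ones included.

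Tested directly, the difference at 24 h departed from that in untreated cells for 1 gene (0.0055%), with 625 genes at an unadjusted p below 0.05, and from that at 4 h for 0 genes by limma (0%), with 1014 at an unadjusted p below 0.05. The gene was D630004K10Rik, a transcript without a known role, whose interaction was -3.05 ± 0.41 (adjusted p = 0.0083). It read 35.5, 27.8 and 24.2 in knockout and 21.7, 15.2 and 13.6 in wild-type cells at 24 h, and averaged 38.1 in knockout and 2.63 in wild-type cells untreated. All of these values lie below background. No member of any list was called in either interaction. Without the 5 arrays of high Gapdh ratio, 932 genes (change from untreated cells) and 1445 genes (change from 4 h) were at an unadjusted p below 0.05. Within each line, cells at 24 h differed from untreated cells in 0 genes in the knockout (1064 at an unadjusted p below 0.05) and in 9 genes in the wild type (0.0495%), 4 of them higher (0.022%) and 5 lower (0.0275%). No fit without the arrays of high ratio was run for these within-line counts. Among 18193 genes tested, a share of about 0.05 has an unadjusted p below 0.05 when nothing changes. The unadjusted counts given here are thus not counts of changed genes.

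Levels of some p53 target and cell cycle genes at the times compared are given next, none of which passed these tests of change. Cdkn1a averaged 235 in knockout and 592 in wild-type cells untreated, 234 and 2132 at 4 h, and 380 and 1857 at 24 h. Its difference between the lines was -1.33 untreated, -3.19 at 4 h and -2.29 at 24 h, and the change from untreated to 24 h in that difference was -0.96 ± 0.55 (adjusted p = 1). Ccng1 averaged 2091 in knockout and 4404 in wild-type cells untreated, 1932 and 7767 at 4 h, and 1776 and 6985 at 24 h (-0.90 ± 0.31 for the change in the difference, adjusted p = 1). E2f1 averaged 885 in knockout and 830 in wild-type cells untreated, 1081 and 710 at 4 h, and 1025 and 529 at 24 h, so that its difference was 0.96 at 24 h and 0.09 untreated (change 0.86 ± 0.20, adjusted p = 0.59). Kifc1, a mitotic kinesin, averaged 511 in knockout and 284 in wild-type cells at 24 h, against 476 and 598 at 4 h, a change of 1.17 ± 0.22 that was among the smallest p of its comparison (adjusted p = 0.22). Ccnf, which encodes cyclin F, averaged 988 in knockout and 563 in wild-type cells at 24 h, against 1228 and 1329 at 4 h (change 0.93 ± 0.21, adjusted p = 0.39).

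By list, the differences between the lines at 24 h stood beside those at the other times as follows. The median over p53 targets was 0.06 in untreated cells, -0.57 at 4 h and -0.25 at 24 h. For mitosis genes it was 0.43 in untreated cells, -0.01 at 4 h and 0.50 at 24 h, and for replication genes 0.31, 0.08 and 0.44 in the same order. Cholesterol synthesis genes had a median of 0.10 in untreated cells, 0.89 at 4 h and 0.45 at 24 h. The difference of class I genes was positive throughout, at 1.03, 0.88 and 1.33. These medians are descriptions, and no change in them over time was tested as a set.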

How the data were processed

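RNA of mouse embryonic fibroblasts was extracted with TRIZOL, biotin-labelled and hybridised to Affymetrix arrays, per the labels. The deposited values are intensities on a linear scale, and the authors' table names 45101 probe sets. Each array had a mean of 500.003 after trimming 2% of probe sets at each end, so all arrays were scaled to a common target. RMA and GCRMA are named, with no version or role, per the submitters' processing notes, and the summary method behind these values is not given in the sources used here. The scale keeps values near 0 (lowest 0.00523), whose log2 is noisy: the median SD between replicates was 1.44 over the 10% of genes of lowest level and 0.18 over the 10% of highest level.

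Values were taken to log2 with no offset. Symbols came from the platform annotation, updated through RefSeq (GRCm38.p6): 34945 probe sets had 1 symbol, 932 several and 9160 none, the last 2 kinds and 64 control probe sets being left out. The brightest probe set stood for a gene, which gave 18193 genes. Limma 3.58.1 (R 4.3.3) was fitted to all 27 arrays with a mean for each of 9 groups (18 residual degrees of freedom), and tests are moderated, two-sided and Benjamini-Hochberg adjusted over all genes (called below 0.05). It was also run on simulated data with independent noise, a self-test that says nothing about the spread between these samples. A gene below the background level (48.31, the highest of 351 readings of 13 Y-linked probe sets) was raised to that level per array for a fold, written as "at least". The number of arrays limits the precision. Averages of intensity are geometric means, and ± is the model's standard error.

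Named genes were those of the Akt and p53 core, up to 20 per direction by fold, up to 6 per list and up to 8 per direction in each interaction by smallest p, and markers above background. Those by fold were taken among called genes whose groups do not overlap, with a group average above background. Other list members named (all HOX genes, Kif22, Mki67, Pidd1, Rrm2b, Plk2, Bbc3, Pmaip1, Cdk1, Cdc20, Atr, Pik3r3, Phlpp2 and the like) were picked after their values were seen. The comparison, its members and the gene lists were chosen with earlier results of these data known. Replicate numbers were not used to pair the samples in the main fit. The 3 correlations of deviations at 24 h were 0.1, -0.17 and 0.19, which with 3 arrays per group cannot exclude a pairing. The alternatives changed the block, the arrays fitted, the prior variance, the log offset, filters on dim genes, normalization and the use of several probe sets, and left out single arrays.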

Additional observations from a re-analysis of the deposited data

Results flagged for a closer look

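For D630004K10Rik the difference between the lines was not the same at 24 h as in untreated cells by the test of that change, -3.05 ± 0.41 (limma adjusted p = 0.0083). The gene averaged 28.8 in knockout and 16.5 in wild-type cells at 24 h, and 38.1 and 2.63 in untreated cells. Each of these averages is under the background level of 48.31, where values on the log2 scale vary most between replicates.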

How the results depend on the processing

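The comparison at 24 h gave 3399 calls, and 2200 on the compared groups only. Its other alternatives gave 2637 to 4866 calls, 2637 to 2949 of them with 1 array left out. Equal array medians gave 3570 calls with 62.6% of them higher, beside 46.0% as deposited. With the replicate number as a block 3383 genes were called, which changed no count above by over 1.5 times, and the numbers were a check only, since 108 same-number correlations over all groups ran from -0.79 to 0.83 with a median of 0.03. The change of the difference from untreated cells, 1 call as deposited, gave 0 calls on the compared groups only, with an intensity trend, with log2(value + 50), above background and without the 5 arrays, 2 calls with quantile normalization, and 0 to 6 calls with 1 array left out. It gave 1 call under the other alternatives, and above the median level that was another gene. The change from 4 h, 0 calls as deposited, gave 9 calls with log2(value + 50), 1 without the 5 arrays, 0 to 4 with 1 array left out and 0 otherwise. Of 209 called genes followed through up to 18 settings, 165 were called in each. None of these called genes changed sign under them. Dim genes, with an SD of 1.44 between replicates, are where the arrays limit the comparison most.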

Other observations

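Within the wild-type line, cells at 24 h after irradiation differed from untreated cells in 9 genes, 4 of them higher and 5 lower. Replicate 2 of the untreated wild type has a high Gapdh ratio, and no fit without it was run for this comparison. Cgas averaged 87.8 in wild-type cells at 24 h and 225 in untreated wild-type cells (-1.36 ± 0.24, limma adjusted p = 0.031). In the knockout Cgas averaged 685 at 24 h and 693 untreated (-0.02, adjusted p = 0.99), and the test of the difference between these changes did not pass (adjusted p = 0.69). Ebf3, a helix-loop-helix factor, averaged 174 at 24 h and 375 untreated in the wild type (-1.10 ± 0.16, adjusted p = 0.011), and 136 and 116 in the knockout (test of the difference 1.33 ± 0.23, adjusted p = 0.14). Elovl6, a fatty acid elongase, was lower at 24 h (-0.86 ± 0.13, adjusted p = 0.011). Zfp367, a zinc finger factor, was higher (0.86 ± 0.14, adjusted p = 0.017). Macir, a regulator of macrophage cytokine output, was also higher (1.08 ± 0.17, adjusted p = 0.014).

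Cell adhesion molecules were divided between the lines at 24 h, with 9 of 42 higher in the knockout and 7 lower. Pcdh18 and Pcdh19, which encode delta protocadherins, were 4.48-fold and 4.43-fold higher, and Pcdh7 of the same family 6.49-fold lower. Itga3, the laminin receptor subunit integrin alpha 3, was 4.17-fold lower.

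Among the genes with the smallest p for a change of the difference from 4 h to 24 h, none of which passed, Xkr5 read 142, 147 and 111 in knockout cells and 61.6, 34.3 and 33.1 in wild-type cells at 24 h (change 2.18 ± 0.39, adjusted p = 0.22).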
